A study of Mus musculus with 36 samples.

Results

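The Nr4a orphan nuclear receptors were followed here through all stimulus and time groups of a study of mouse cortical neurons. The members were taken by their gene symbols, Nr4a1 (also known as Nur77), Nr4a2 (Nurr1) and Nr4a3 (Nor1), and all 3 were found among the 26709 genes of the RNA table. Primary cortical neurons came from CD-1 mouse embryos at embryonic day 15 and were kept for 7 days in vitro. All cultures, controls included, were kept silent for 2 h by AP-5 (100 µM), which blocks NMDA receptors, and TTX (1 µM), which blocks sodium channels. Stimulated cultures then received BDNF, a secreted neurotrophin that acts through the TrkB receptor, at 10 ng/ml, or KCl, which depolarises the membrane, at 55 mM. They were collected after 1, 6 or 10 h, and the controls remained silenced alongside them, for 3, 8 or 12 h in all. RNA-seq and ATAC-seq, an assay of open chromatin, were each available for 18 libraries, 2 for each of the 9 groups. The controls of the 3 times were compared as 1 group of 6 libraries. The study describes the libraries of a group as biological replicates, while the labels do not say whether they came from separate cultures, and p-values measure the spread between these libraries.

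The members encode transcription factors with the zinc finger DNA-binding domain and the ligand-binding fold of the nuclear receptor superfamily, but the pocket of that fold is filled with bulky side chains and no physiological ligand is established, hence the name orphan. They act largely according to how much protein is made, and they bind a DNA element called NBRE as monomers, related palindromes as dimers and, for Nr4a1 and Nr4a2, other elements together with the retinoid X receptors. In neurons they are known as immediate early genes, which are transcribed within minutes of calcium entry or growth factor signalling without new protein synthesis. The factors CREB, which binds the cyclic AMP response element (CRE), and MEF2, which class IIa histone deacetylases hold in check, are known regulators of Nr4a1. Nr4a2 is best known for its need in the making of midbrain dopamine neurons.

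Nr4a1 (ENSMUSG00000023034) lies at chr15:101254269-101274795 on the plus strand, Nr4a2 (ENSMUSG00000026826) at chr2:57106830-57124003 on the minus strand and Nr4a3 (ENSMUSG00000028341) at chr4:48045153-48086447 on the plus strand (GENCODE M21, build mm10). Promoter windows of 300 bases, from 250 before to 50 after the RefSeq start of each gene (assembly GRCm38.p6), were searched on both strands for the CRE (TGACGTCA), its core (TGACG), the AP-1 site (TGANTCA), the EGR site (GCGTGGGCG), the NBRE (AAAGGTCA), the CArG box bound by Srf, and the MEF2 site. A full CRE also counts as 2 cores, 1 on each strand. Each of the 3 windows held 4 CRE cores, a number reached by 0.231% of the 32851 promoter windows of RefSeq genes, whereas 20.8% of them held at least 1. None of the 3 held a full CRE (1.79% of all windows), an AP-1 site (7.81%), an EGR site (0.612%), a CArG box (1.63%) or an NBRE (1.51%). The MEF2 site was matched once in the Nr4a2 window (3.19% of all windows held one) and not in the other two. The bases before the RefSeq start, or for Nr4a3 those before its first annotated exon, are shown 5′ to 3′ on the gene's strand, because all 3 windows share the cores, with cores (read as TGACG or, on the other strand, CGTCA) and the 10-base MEF2 site in capitals. The fourth core of Nr4a3, in an annotated exon, is not in the bases shown.
Nr4a1 promoter, chr15:101266596-101266845, plus strand: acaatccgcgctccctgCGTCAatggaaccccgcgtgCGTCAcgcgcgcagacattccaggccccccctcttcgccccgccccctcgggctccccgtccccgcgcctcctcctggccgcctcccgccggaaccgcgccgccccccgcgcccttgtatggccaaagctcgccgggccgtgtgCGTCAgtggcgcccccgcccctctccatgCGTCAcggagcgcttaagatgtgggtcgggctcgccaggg
Nr4a1 bases just before these, inside the same accessible peak, chr15:101266498-101266595, plus strand, with 2 MEF2 sites in capitals: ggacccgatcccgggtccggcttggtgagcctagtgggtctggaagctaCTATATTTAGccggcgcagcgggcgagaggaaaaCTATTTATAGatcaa
Nr4a2 promoter, chr2:57124004-57124253, minus strand: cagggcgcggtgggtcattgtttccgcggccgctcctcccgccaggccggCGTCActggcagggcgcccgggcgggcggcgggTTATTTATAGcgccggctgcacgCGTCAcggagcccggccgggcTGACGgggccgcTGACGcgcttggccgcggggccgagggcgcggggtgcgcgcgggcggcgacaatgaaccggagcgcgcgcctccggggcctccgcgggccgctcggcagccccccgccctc
Nr4a3 promoter, chr4:48045055-48045152, plus strand: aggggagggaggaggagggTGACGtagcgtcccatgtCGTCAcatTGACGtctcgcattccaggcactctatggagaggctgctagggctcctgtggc
The 2 MEF2 sites of Nr4a1 began at positions -299 and -265 from the RefSeq start, outside the promoter window. These matches describe letters only, and whether a factor was bound was not measured.

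RNA libraries held 8.51 to 36.7 M (mega) reads (median 11.6) and ATAC libraries 1.24 to 6.24 M reads in peaks (median 3.55), the shallowest ATAC library being 1 of the 2 with KCl at 6 h. The members were well covered, with at least 43 whole reads for Nr4a1, 177 for Nr4a2 and 756 for Nr4a3 in every RNA library. The defining markers of neurons were present (5 of 5, summed normalised read count 39659 to 50967 over libraries), as were those of cortical excitatory neurons and interneurons (5 of 5 each). Other cells were in the cultures as well: astrocyte markers (4 of 4) summed to 7024 to 12628, oligodendrocyte lineage markers (4 of 4) to 4175 to 7138 and markers of cycling or radial glial cells (4 of 4) to 4943 to 8906. Microglial markers summed to at most 102 and endothelial ones to at most 28.1, and P2ry12 and Cldn5 were under the expression filter. Excitatory neuron markers summed to 3817 and 3866 with BDNF at 1 h and to 7062 and 7139 with KCl at 6 h. In controls they summed to 5193 to 5930. Interneuron markers summed to 13537 and 14061 with BDNF at 1 h and 12393 to 14336 with KCl at 6 h. In controls these summed to 9723 to 11539. Averaged over all RNA libraries, controls included, Gad1, Gad2 and Slc32a1 were at 3732, 1801 and 1582, against 2687, 1467 and 1104 in controls. The interneuron markers Dlx1 and Lhx6 went the other way, at 4304 and 734 against 4655 and 755. These averages do not separate the stimulus groups. With KCl at 6 h, astrocyte markers were at 7024 to 8300 (8835 to 11817 in controls) and those of cycling or radial glial cells at 4943 to 5147 (6331 to 8906). Oligodendrocyte lineage markers were at 4175 to 4721 with KCl at 1 h, 6791 to 7138 at 6 h and 6413 to 7048 at 10 h (5632 to 6065 in controls). Markers of subplate neurons, Nr4a2 itself left out, summed to 329 to 480 in controls, with 4 of 5 past the filter and Cplx3 under it. They were at 315 to 319 with BDNF at 1 h and at 517 to 755 with KCl at 6 h. The part of such shifts in the members' values was not tested. In bulk libraries, fewer cells of a type and less RNA per cell cannot be told apart.

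In silenced neurons Nr4a3 was the most abundant member and Nr4a1 the least. Normalised read counts (reads scaled for library depth) in the 6 controls ranged from 50.9 to 64.4 for Nr4a1 (median 55.9), from 202 to 228 for Nr4a2 (median 209) and from 908 to 1054 for Nr4a3 (median 1002). Per kilobase of annotated exon, the level was 16.1 ± 1.47 (SD, n = 6) for Nr4a1, 52.1 ± 2.24 for Nr4a2 and 167 ± 8.97 for Nr4a3. The ranges of the 3 genes per kilobase did not overlap. Controls of 6 h and of 10 h differed from those of 1 h by -0.18 to 0.06 on the log2 scale over the 3 members, and no member passed the test. Nor did any other gene (0% of 16209 tested with limma in either comparison, 164 and 181 genes having an unadjusted p below 0.05, and 0 genes with edgeR or DESeq2).

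**Figure D1:**
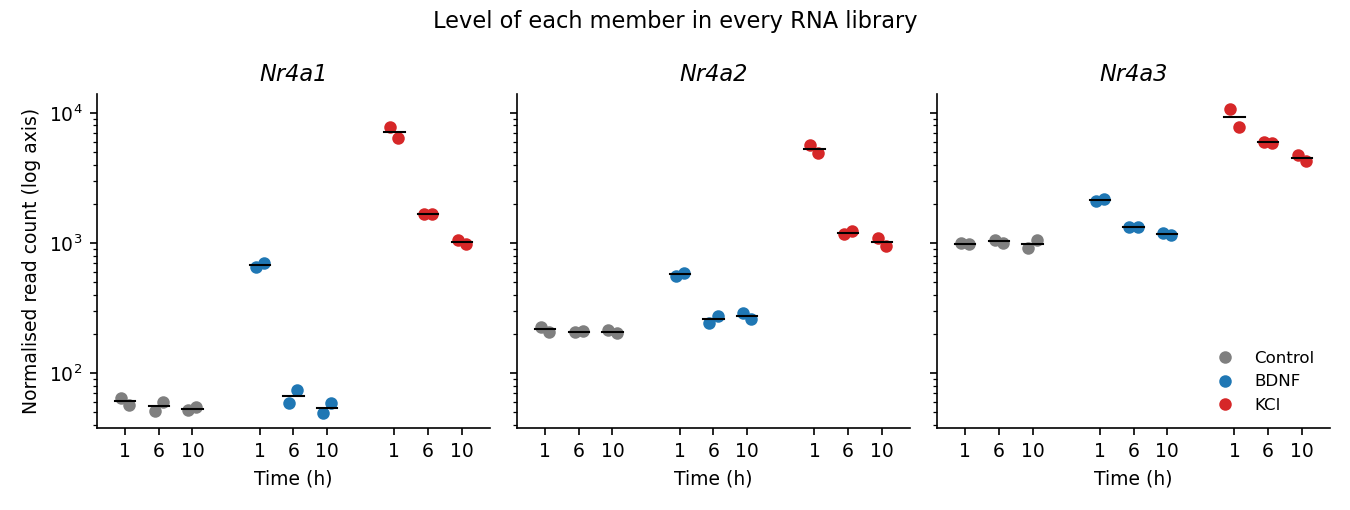
Normalised read count (log axis) of each Nr4a member in the 18 RNA libraries, by time (h), with 1 point per library, grey for controls, blue for BDNF, red for KCl, and a black line at the mean of the 2 libraries of a group. KCl libraries of 1 h sit highest in each panel, and Nr4a1 with BDNF returns among the controls (50.9 to 64.4) or near them at 6 and 10 h, at 49.7 to 74.1.

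At 1 h all 3 members rose with both stimuli, and each rose far more with KCl. Nr4a1 was at 657 and 704 normalised read counts in the 2 BDNF libraries and at 7748 and 6378 in the 2 KCl libraries. Its mean was 12.0 times that of controls with BDNF and 125 times with KCl. Both stimulated pairs lay above every control, and the KCl pair lay above the BDNF pair. The log2 fold change, taken throughout on log2(normalised read count + 1), was 3.57 ± 0.11 (SE) with BDNF (adjusted p = 1.21e-16) and 6.94 ± 0.11 with KCl (adjusted p = 8.99e-22), which placed Nr4a1 at rank 26 and rank 3 of the 16209 genes ordered by rise.

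Nr4a2 was at 559.6 and 587 with BDNF and at 5703 and 4874 with KCl at 1 h. The mean was 2.71 times that of controls with BDNF and 25.0 times with KCl, with no overlap between the 3 sets of libraries. Its log2 fold changes were 1.44 ± 0.08 (adjusted p = 5.63e-12) and 4.63 ± 0.08 (adjusted p = 4.33e-21). Nr4a3, already the most abundant, was at 2091 and 2185 with BDNF and at 10756 and 7814 with KCl. These were 2.14 and 9.30 times the control mean, again without overlap, and gave log2 fold changes of 1.10 ± 0.08 (adjusted p = 8.52e-10) and 3.20 ± 0.08 (adjusted p = 7.00e-18). The order of the fold changes, Nr4a1 then Nr4a2 then Nr4a3, was thus the reverse of the order of the control levels under both stimuli. Calls were common at this time: 40.4% of all genes tested were called with BDNF (21.3% higher) and 54.7% with KCl (26.5% higher), at an adjusted p below 0.1.

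With KCl all 3 members stayed well above controls at 6 and 10 h, where 66.5% of all genes were called at 6 h (33.4% higher) and 57.2% at 10 h (29% higher). Nr4a1 had 1684 and 1681 normalised read counts at 6 h, and 1045 and 985 at 10 h, which gave log2 fold changes of 4.88 ± 0.11 (adjusted p = 1.74e-18) and 4.15 ± 0.11 (adjusted p = 5.54e-17). Nr4a2 was at 1168 and 1232, then at 1093 and 942, with log2 fold changes of 2.50 ± 0.08 and 2.26 ± 0.08. Nr4a3 was at 5997 and 5858, then at 4716 and 4256, with log2 fold changes of 2.57 ± 0.08 and 2.17 ± 0.08, and the adjusted p was at most 1.61e-14 for each of these 4 values. Every KCl library of these times lay above every BDNF library of any time for each gene. After 10 h of depolarisation the means were 18, 4.81 and 4.49 times those of controls for Nr4a1, Nr4a2 and Nr4a3.

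With BDNF little of the early rise was left. Over all genes tested, 43.3% were called at 6 h (22.1% higher) and 40.6% at 10 h (21.1% higher). Nr4a1, the member that had risen most, had 58.6 and 74.1 at 6 h, then 49.7 and 59.0 at 10 h, inside or next to the control range of 50.9 to 64.4. Its log2 fold change was 0.22 ± 0.11 (adjusted p = 0.122) at 6 h and -0.05 ± 0.11 (adjusted p = 0.741) at 10 h, neither past the threshold. The value of 6 h depended on single libraries: without BDNF library A it was 0.39 (adjusted p = 0.0474) and without control library A of 1 h it was 0.26 (adjusted p = 0.0611), both past the threshold.

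Nr4a2 with BDNF had 242 and 274 at 6 h, then 289 and 262 at 10 h, all above the highest control, with log2 fold changes of 0.29 ± 0.08 (adjusted p = 0.00901) and 0.38 ± 0.08 (adjusted p = 0.00121). Without BDNF library B the value of 6 h was 0.20 (adjusted p = 0.212). Nr4a3 was at 1337 and 1326 and then at 1188 and 1153, also above the highest control, with log2 fold changes of 0.42 ± 0.08 (adjusted p = 0.000521) and 0.23 ± 0.08 (adjusted p = 0.0389). The late value of Nr4a3 was 0.21 (adjusted p = 0.208) without BDNF library A and 0.25 (adjusted p = 0.144) without library B, so that this call needed both. Whether the members differed from each other in what was left at these times was not tested.

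**Figure D2:**
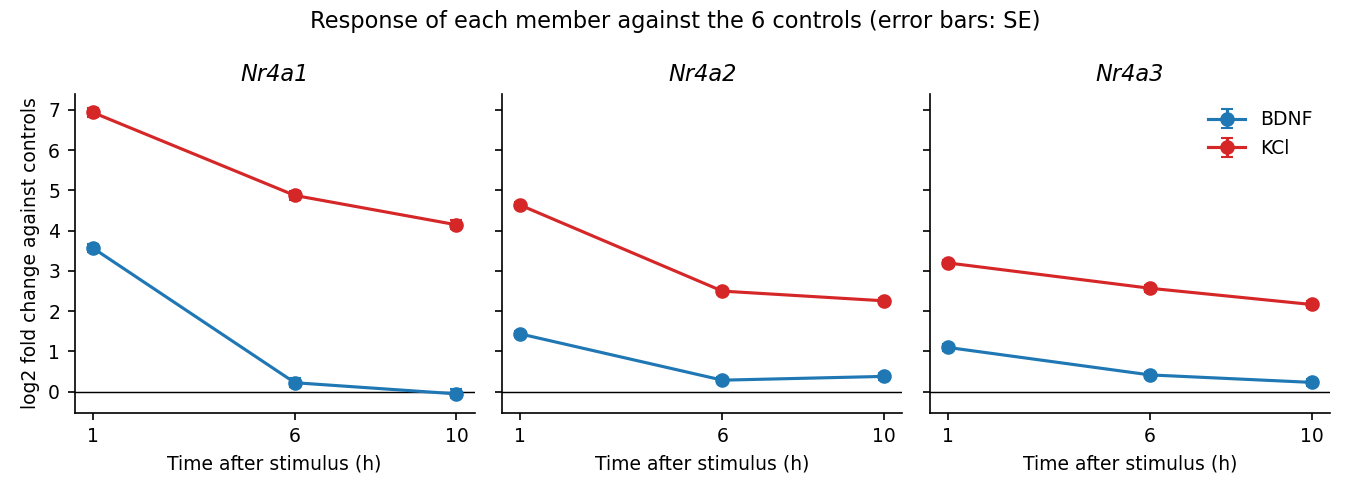
log2 fold change of each member against the 6 controls at 1, 6 and 10 h, with BDNF in blue and KCl in red and bars of 1 SE, most of them smaller than the points. The red line lies above the blue line at each time in each panel, and Nr4a1 falls from 3.57 at 1 h to 0.22 at 6 h with BDNF but only from 6.94 to 4.88 with KCl.

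The difference between the stimuli was tested directly at each time. BDNF was below KCl for all 3 members at 1 h (log2 difference -3.37 ± 0.14 for Nr4a1, -3.20 ± 0.10 for Nr4a2 and -2.10 ± 0.10 for Nr4a3), where 42.8% of all genes differed. At 6 h the differences were -4.65 ± 0.14, -2.21 ± 0.10 and -2.15 ± 0.10 in the same order, among 57.3% of genes called. At 10 h they were -4.20 ± 0.14, -1.88 ± 0.10 and -1.94 ± 0.10, among 45% called. The highest adjusted p of the 9 values was 6.73e-12, and both KCl libraries exceeded both BDNF libraries in every case.

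From 1 to 6 h all 3 members fell under both stimuli. With BDNF the log2 change was -3.35 ± 0.14 for Nr4a1, -1.15 ± 0.10 for Nr4a2 and -0.68 ± 0.10 for Nr4a3 (adjusted p at most 3.31e-05, 33.6% of genes called). With KCl it was -2.06 ± 0.14, -2.14 ± 0.10 and -0.63 ± 0.10 (adjusted p at most 2.61e-05, 59.6% called), the last being -0.40 without KCl library A of 1 h. Of the level reached at 1 h, Nr4a1 kept 9.75% at 6 h with BDNF and 23.8% with KCl, Nr4a2 kept 45.1% and 22.7%, and Nr4a3 kept 62.3% and 63.8%. These shares include the control level. Of the rise over controls at 1 h, Nr4a1 kept 1.58% with BDNF and 23.2% with KCl, Nr4a2 13.0% and 19.5%, and Nr4a3 29.2% and 59.5%, so that all 3 kept the smaller share with BDNF and Nr4a2 changed its order between the measures. The shares were not tested. On the log2 scale of the level, the difference between the stimuli in the change was tested, and 48.1% of all genes passed. Nr4a1 fell less with KCl than with BDNF (difference 1.29 ± 0.19, adjusted p = 1.50e-05), Nr4a2 fell more with KCl (-0.99 ± 0.14, adjusted p = 1.01e-05), and for Nr4a3 the difference was 0.05 ± 0.15 (adjusted p = 0.803). For Nr4a3 it was 0.28 without KCl library A of 1 h (adjusted p = 0.0679), which is past the threshold.

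From 6 to 10 h, no member changed detectably with BDNF (log2 changes of -0.28 ± 0.14, 0.09 ± 0.10 and -0.19 ± 0.10, adjusted p from 0.853 to 1.00), a step at which 0.216% of all genes were called. With KCl, where 22.5% were called, Nr4a1 fell by 0.73 ± 0.14 (adjusted p = 0.00119) and Nr4a3 by 0.40 ± 0.10 (adjusted p = 0.0112). Nr4a2 changed by -0.24 ± 0.10 (adjusted p = 0.108), just short of the threshold. It passed without control library A of 1 h (adjusted p = 0.0985), without either KCl library of 1 h (0.0925 and 0.0921) and without KCl library A of 6 h (0.0978).

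Ordered by mean over the 9 groups, each gene ended with BDNF at 1 h and then KCl at 10, 6 and 1 h, the highest. Below these, Nr4a2 and Nr4a3 had the controls and then late BDNF, while for Nr4a1 BDNF at 10 h lay among the controls and BDNF at 6 h next above them. The lowest 5 groups of Nr4a1 (the controls and BDNF at 6 and 10 h) followed each other with overlapping libraries, as did the 3 control groups of Nr4a2 and of Nr4a3, and BDNF at 6 and 10 h for Nr4a2. All other neighbours in these orders had libraries that did not overlap.

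The members are known to bind the same DNA element, and their proportions were described as shares of their summed level per kilobase. The sum was 235 ± 8.95 (SD, n = 6) in controls, 692 ± 25.3 (n = 2) with BDNF at 1 h and 4867 ± 768 with KCl at 1 h. In controls Nr4a3 made up 70.9% ± 1.64 of it, Nr4a2 22.2% ± 1.27 and Nr4a1 6.85% ± 0.565. With BDNF at 1 h Nr4a1 made up 27.8% and 28.2% in the 2 libraries and Nr4a3 51.4% and 51.8%, and with KCl at 1 h Nr4a1 took 42.0% and 40.8% and became the largest part. At 6 h Nr4a1 was at 5.57% and 6.81% with BDNF, within or next to the control range of 6.01% to 7.58%, but still at 27.2% and 27.1% with KCl. At 10 h with KCl it was at 22.9% and 22.0%. Nr4a3 was at 55.6% to 56.6% with KCl at 6 h and at 58.1% in both libraries of 10 h, below its control range of 69.2% to 72.9%. Nr4a2 stayed between 16.3% and 27.8% in all groups. The exact two-sided permutation test used doubles the smaller tail, and with 2 libraries against 6 it cannot give a p below 0.0714. This value was reached for all 3 genes with BDNF at 1 h and with KCl at every time (0.107 after adjustment over the 18 tests), so that these shares stand as descriptions.

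**Figure D3:**
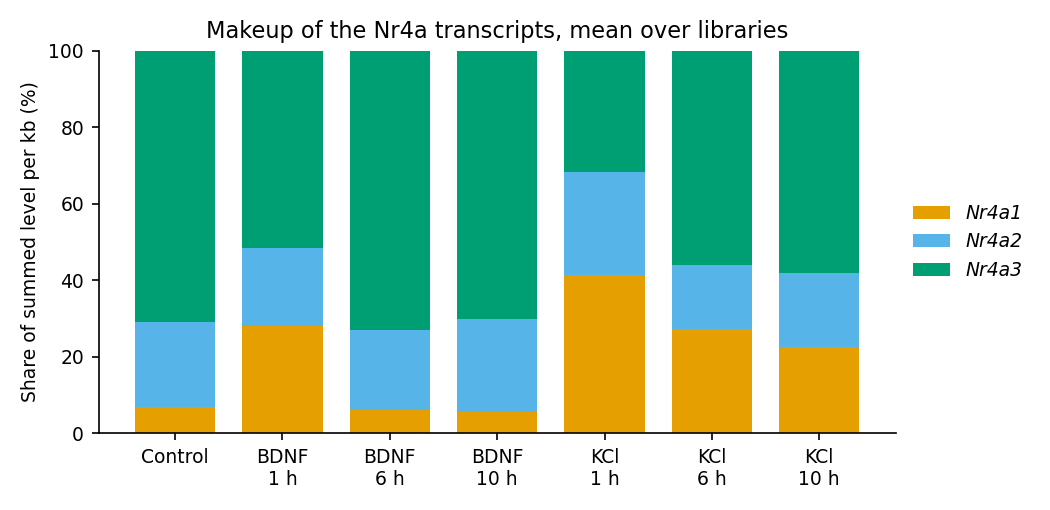
Stacked bars of the mean share (%) of each member in the summed level of the 3 genes per kilobase of exon, for the 6 controls and for the 2 libraries of each stimulated group, with SDs between 0.03 and 2.21 percentage points that are not drawn. Nr4a1 widens from 6.85% in controls to 28% and 41.4% after 1 h of BDNF or KCl, and only the KCl bars keep a wide Nr4a1 part at 6 and 10 h.

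Genes with the most similar course were ranked by Pearson correlation of the 9 group means on the log2 scale, among 1164 genes whose means spanned at least 2 log2 units. All points come from the same 18 libraries, and the values are descriptive. The nearest to Nr4a1 were Npas4, a neuronal transcription factor induced by calcium entry (r = 0.984), Nfil3, a transcription factor of the bZIP class (0.973), Slc38a2, an amino acid transporter (0.962), Fos, a subunit of AP-1 (0.960), and B9d1os (0.956). Npas4, for example, had group means of 78.6 to 92.5 in controls, 369 with BDNF at 1 h, 64.3 and 64.5 late with BDNF, and 3872, 1822 and 1157 with KCl at 1, 6 and 10 h. The nearest to Nr4a2 were Fbxo33, an F-box protein gene (0.984), 4930483K19Rik (0.975), Il17rb, a cytokine receptor (0.969), Gla, a lysosomal galactosidase (0.968), and Gm13710 (0.967). Those of Nr4a3 were Npas4 (0.982), Crem, a CREB family member (0.977), 4930483K19Rik (0.968), Cd79a (0.967) and Slc38a2 (0.964). The members were left out of each other's lists. They correlated with each other at 0.972 to 0.976, less closely than with the first gene of each list. These values were above those of Slc38a2 for Nr4a1, Il17rb for Nr4a2 and 4930483K19Rik for Nr4a3, and of the genes named after these. 4930483K19Rik, Il17rb, Gm13710, B9d1os and Cd79a are low in these cells, with control means from 1.86 to 13.5.

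The other genes of the nuclear receptor superfamily lay below the Nr4a members with KCl and among them late with BDNF. Of 46 such genes, 28 were past the filter on low values, and 14, 16 and 12 of them were called with BDNF at 1, 6 and 10 h (6, 5 and 4 higher) and 19, 17 and 16 with KCl (10, 8 and 9 higher), shares of the 28 that can be read beside the 40.4%, 43.3%, 40.6%, 54.7%, 66.5% and 57.2% over all genes. The 16 with BDNF at 6 h came to 9 without BDNF library B, and the 16 with KCl at 10 h to 9 or 10 without KCl library A or B. The median log2 fold change over the 28 was between -0.10 and 0.03 in the 6 comparisons. With KCl the values of the 28 ran from -1.11 to 1.13 at 1 h, from -1.33 to 0.80 at 6 h and from -0.67 to 0.75 at 10 h, all below the lowest Nr4a member (3.20, 2.50 and 2.17). With BDNF at 1 h they lay between -1.27 and 1.59. The values of Nr6a1 (1.59 ± 0.17), an orphan receptor of the germ line, Rara (1.22 ± 0.10) and Nr2f6 (1.12 ± 0.12) lay above that of Nr4a3 (1.10), and that of Nr6a1 also above that of Nr4a2 (1.44), by amounts that were not tested.

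Of the 28, 8 were called with a change of at least 1 log2 unit in a comparison, and the 6 with the largest changes are named. Nr6a1 was at 293 ± 17.0 (n = 2) with BDNF at 1 h and 97.3 ± 11.5 (n = 6) in controls (log2 fold change 1.59, adjusted p = 2.23e-07), and at 105 ± 31.7 with KCl. With BDNF at 6 h Nr6a1 was called lower (-0.66). Rara, the retinoic acid receptor alpha, was called higher with BDNF at 1, 6 and 10 h (1.22, 0.66 and 0.40). It was also called higher with KCl at these times (0.47, 0.50 and 0.21). Rarg, the gamma paralog, was called lower with BDNF at these times (-1.27, -0.84 and -0.61) and was not called with KCl. Thrb, a thyroid hormone receptor, fell by 1.11 with KCl at 1 h and rose with it at 6 h (0.28) and 10 h (0.55), and it rose with BDNF at 6 h (1.42, from 164 ± 8.79 to 439 ± 31.8) and 10 h (1.36). Nr3c2, the mineralocorticoid receptor, rose by 0.49 with KCl at 1 h and was lower at 6 h (-1.33) and 10 h (-0.67). Nr1d1, a clock repressor, rose with KCl at 1 h (1.13) and 6 h (0.33) and was called lower with BDNF at 1 h (-0.35). Of the retinoid X receptors, the partners of Nr4a1 and Nr4a2, Rxra and Rxrb were called lower with KCl at 1 h (-0.47 and -0.24), Rxrb also with BDNF at 1 h (-0.38) and higher with KCl at 10 h (0.20, adjusted p = 0.0935 with limma), and Rxrg passed in no comparison. The call at 10 h was lost in 11 of 18 fits without single libraries and under 5 of 10 other alternatives. Without KCl library A of 1 h, 1 of these receptors was called with KCl at 1 h, and at 6 h, where none was, 2 were called without KCl library B of 6 h and 1 without control library B of 1 h or either KCl library of 1 h.

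**Figure D4:**
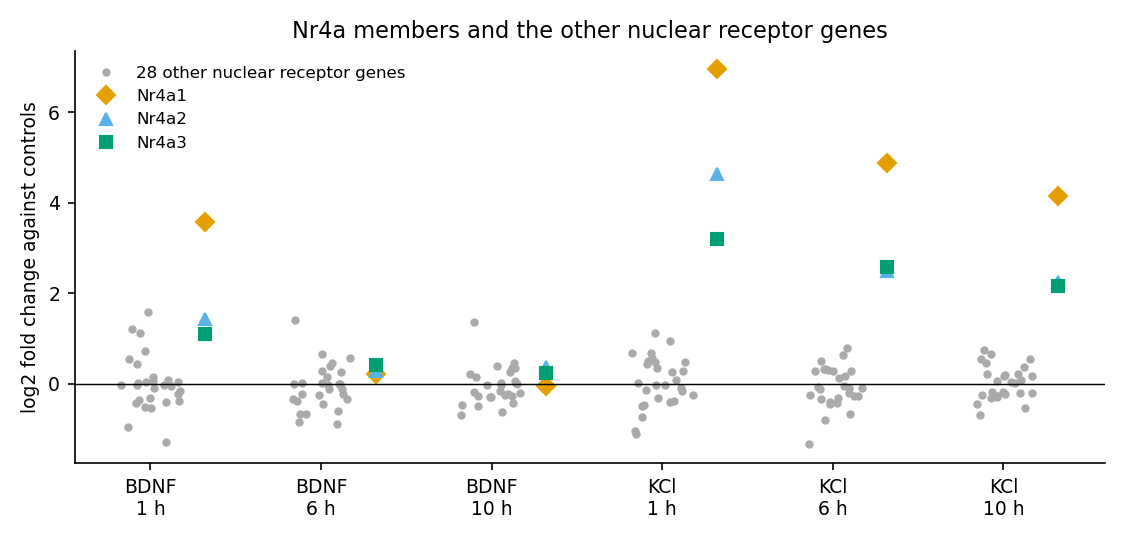
log2 fold change against the 6 controls for the 3 Nr4a members (coloured symbols) and the 28 other nuclear receptor genes past the filter (grey points, spread sideways for display) in the 6 comparisons. With KCl all 3 members lie above every grey point, while with BDNF at 6 and 10 h they lie among them.

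Of 15 genes for known upstream factors (CREB family and its CRTC coactivators, MEF2 factors, Srf and class IIa histone deacetylases) 14 were tested, and 11, 5 and 5 were called with BDNF (7, 2 and 2 higher) and 10, 11 and 9 with KCl (6, 8 and 6 higher), beside 40.4%, 43.3% and 40.6% of all genes with BDNF and 54.7%, 66.5% and 57.2% with KCl. The 5 with BDNF at 6 h came to 3 without either BDNF library, control library B of 6 h or control library A of 10 h, and the 5 at 10 h to 3 without BDNF library B. Crem, whose gene also makes inducible repressors from an internal promoter, rose to 527 ± 110 with KCl at 1 h and 602 ± 85.2 at 6 h from 119 ± 13.1 in controls (2.13 and 2.33). With KCl at 10 h Crem was still higher (1.77), and with BDNF it was called at 1 h (0.71) and 10 h (0.35) but not at 6 h (0.22). Hdac9, a class IIa deacetylase that restrains MEF2, was lower at 1 h under both stimuli (-0.40 with BDNF and -0.41 with KCl) and rose late with KCl, to 1657 ± 95.5 at 6 h and 1900 ± 61.9 at 10 h from 281 ± 23.6 (2.56 and 2.76). With BDNF its values at these times were -0.17 and -0.05, neither past the threshold, and the direct difference of BDNF from KCl was -2.73 and -2.80. Hdac5, of the same class, rose at 1 h with BDNF (1.5) and at all 3 times with KCl (1.32, 1.38 and 1.24). Srf rose at 1 h with both (1.65 with BDNF and 1.09 with KCl). It was still called higher at 6 and 10 h, by less, with BDNF (0.38 and 0.32) and with KCl (0.73 and 0.53). Mef2c fell with BDNF at all 3 times (-0.83, -1.30 and -0.84). With KCl Mef2c was called higher at 1 h (0.31), not called at 6 h (-0.06) and called lower at 10 h (-0.20).

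Of 10 genes known as NR4A targets from other tissues, 8 were tested, and 4, 5 and 4 were called with BDNF (4, 4 and 3 higher) and 5, 6 and 6 with KCl (4, 4 and 4 higher), to be read beside the same shares of all genes. The 5 with KCl at 1 h came to 1 without KCl library A and to 3 without KCl library B or control library B of 1 h, and the 5 with BDNF at 6 h to 3 without either BDNF library. Bdnf, the neurotrophin gene itself, rose with KCl to 488 ± 187 at 1 h, 1713 ± 12.4 at 6 h and 1433 ± 162 at 10 h from 58.7 ± 10.3 (3.00, 4.86 and 4.60), and with BDNF by 1.49, 0.89 and 0.98. The dopamine neuron genes were low: the mean of Slc6a3, the dopamine transporter, was 4.51 ± 2.46 in controls and that of Ddc, an enzyme of dopamine synthesis, 6.89 ± 2.69, both under the filter. Th, the rate-limiting enzyme of that synthesis, had 8.05 ± 3.67 in controls and 25.5 ± 0.470 with BDNF at 1 h (1.64, adjusted p = 0.00183). It was also called higher with BDNF at 6 h (1.52) and 10 h (1.09) and with KCl at 1 h (1.09). With KCl at 6 and 10 h it was not called (-0.27 and -0.35). Ret, a receptor for GDNF family ligands, fell with KCl at 6 and 10 h (-1.22 and -1.52) and with BDNF at 10 h (-0.78). Vip, a neuropeptide with 13.0 ± 3.57 in controls, rose with BDNF at 1, 6 and 10 h (1.11, 0.73 and 0.84). Vip also rose with KCl at 6 and 10 h (0.77 and 1.19). Some of these low counts rest on few reads, and binding of the members to these genes was not measured.

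In the ATAC data 18 peaks lay in the gene bodies of the members or within 50 kb of them, 9 for Nr4a1, 5 for Nr4a2 and 4 for Nr4a3, and all were tested among 56383 peaks with edgeR. Of the 18, 2 were called with BDNF at 1 h, 1 at 6 h and 1 at 10 h, where 17.3%, 10.6% and 9.36% of all peaks were called. With KCl 5, 4 and 1 were called, where 7.56% to 8.31% of all peaks were (8.31% at 1 h, 7.56% at 6 h and 7.87% at 10 h). BDNF and KCl differed at 3 of the 18 at 1 h (14.8% of all peaks) and at 0 at 6 h and 10 h (3.6% and 2.02%). Several of these calls rest on weak peaks and single libraries, as given below.

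The peak over the main promoter of Nr4a1 (chr15:101266257-101267037), which holds the printed promoter with its cores and the 2 MEF2 sites, was called higher with KCl at all 3 times and with BDNF at 1 h. Its scaled ATAC read count was 37.2 to 62.0 in the 6 controls (median 46.8), 75.7 and 97.5 after BDNF for 1 h, and 129 and 130.4 after KCl for 1 h. The 3 sets did not overlap. The log2 fold change was 0.81 ± 0.20 with BDNF (adjusted p = 0.00141, but 0.149 without 1 of the 2 BDNF libraries) and 1.40 ± 0.19 with KCl (adjusted p = 5.03e-08), and the direct difference was -0.59 ± 0.23 (adjusted p = 0.0870). The direct difference was not called without any 1 of the 4 libraries compared (-0.77 to -0.40). With KCl the peak was still at 90.5 and 115 at 6 h, then at 99.8 and 108 at 10 h (1.02 and 1.08, adjusted p = 0.000923 and 8.88e-05). With BDNF it was at 52.6 and 85.7 and then at 52.3 and 68.4, partly inside the control range (0.53 and 0.32, adjusted p = 0.109 and 0.548).

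A second Nr4a1 promoter, 12.6 kb upstream of that start (chr15:101253964-101254522), was called with KCl at 6 h, at 58.2 and 72.1 against 21.2 to 47.1 in controls (0.92 ± 0.29, adjusted p = 0.0443). The call was lost without either of these libraries or 1 control library of 1 h (0.79 to 1.10), and with controls of the same time alone (0.53, adjusted p = 0.512). An intergenic peak 10.7 kb downstream of the start (chr15:101277447-101277665) was lower with BDNF at 6 h, at 3.71 and 6.96 against 14.7 to 28.6 (-1.90 ± 0.52, adjusted p = 0.00597), a call that was lost without 1 of the 2 BDNF libraries (-1.57). This is a weak peak of 4 to 32 raw reads per library. The other 6 peaks around Nr4a1, among them promoters of Atg101 and Grasp, were called in no comparison with controls.

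At Nr4a2 a peak inside the gene was called with KCl at 1 h, and its promoter was not. The intronic peak chr2:57116732-57116962, 7.16 kb downstream of the start, was at 53.9 and 48.5 with KCl at 1 h against 13.2 to 20.4 in the 6 controls (1.61 ± 0.33, adjusted p = 0.000831). At 6 and 10 h with KCl it was at 17.5 to 21.2, back among the controls. The 2 BDNF libraries of 1 h disagreed, at 10.9 and 39.9 (0.65 ± 0.37, adjusted p = 0.280), and BDNF and KCl did not pass the direct test (-0.97 ± 0.41, adjusted p = 0.125). The peak is shown whole because it carries 3 CRE cores, in capitals, a number found in 0.567% of the 58177 windows of 300 bases at peak centres (at least 1 in 16.5%).
Nr4a2 intronic peak, chr2:57116732-57116962, plus strand (antisense to the gene): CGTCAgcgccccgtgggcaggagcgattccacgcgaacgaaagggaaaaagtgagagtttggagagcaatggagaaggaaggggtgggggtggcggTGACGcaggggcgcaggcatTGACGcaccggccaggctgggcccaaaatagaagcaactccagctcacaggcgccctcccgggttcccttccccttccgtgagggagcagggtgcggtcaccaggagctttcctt

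The Nr4a2 promoter peak (chr2:57123448-57124435) was lower with BDNF at 1 h, at 67.1 and 84.9 against 78.2 to 127 in controls, groups that overlap (-0.49 ± 0.19, adjusted p = 0.0646), and the call was lost without either BDNF library or without 1 control library of 1 h or of 10 h (-0.67 to -0.33), and with controls of the same time alone (-0.40, adjusted p = 0.301). With KCl at 1 h, when the RNA was 25.0 times that of controls, it was at 93.2 and 107 (-0.09 ± 0.17, adjusted p = 0.825). A further promoter inside Nr4a2 (chr2:57114291-57115261) was called in no comparison (-0.18 to 0.20 against controls). A peak 14.9 kb upstream of the start, in an intron of BB557941 (chr2:57138651-57139082), was at 50.5 and 29.0 after KCl for 6 h, and 42.6 and 30.4 after BDNF for 10 h, against 11.8 to 23.4 in controls (1.20 ± 0.34, adjusted p = 0.0183, and 0.97 ± 0.36, adjusted p = 0.0841). The first call was lost without 1 of the 2 KCl libraries (0.65), the second without either BDNF library or 1 of 2 control libraries (0.72 to 1.21). With controls of the same time alone neither was called (1.22, adjusted p = 0.108, and 0.77, adjusted p = 0.443). Its mean was above that of controls in all 6 stimulated groups, at 29.1 to 39.7. The intergenic peak chr2:57066042-57066295 was lower with KCl at 1 h, at 6.02 and 10.7 against 11.3 to 34.3 (-1.40 ± 0.45, adjusted p = 0.0499), a call that needed both KCl libraries and 1 control library of 6 h (-1.90 to -1.09 without one of them) and that was not made against same-time controls alone (-0.91, adjusted p = 0.439).

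At Nr4a3 the promoter peak (chr4:48044563-48045387) rose with KCl at 1 h to 290.0 and 307 from 175 to 235 in controls (0.53 ± 0.11, adjusted p = 0.000917). With BDNF at 1 h it was at 206 and 214, inside the control range (0.02 ± 0.12), and the direct difference passed (-0.51 ± 0.14, adjusted p = 0.00730; -0.47, adjusted p = 0.129, without 1 of the 2 KCl libraries). At 6 and 10 h with KCl it was at 199.6 to 242. An intronic peak 34.6 kb downstream of the start (chr4:48079691-48080036) was at 29.1 and 46.2 with KCl at 1 h against 8.86 to 30.1 in controls and 12.7 and 20.9 with BDNF (0.97 ± 0.35, adjusted p = 0.0878, and -1.16 ± 0.45, adjusted p = 0.0861, for BDNF against KCl). Both calls were lost without KCl libraries singly (0.59 and 1.25 against controls, -0.79 for the direct difference without one of them), the first also without any of 4 control libraries and the second without either BDNF library, and the peak had 4 to 83 raw reads per library. With controls of the same time alone the first was 1.31 (adjusted p = 0.110). The peak held none of the motifs searched. The peak 2.1 kb upstream of the start (chr4:48042731-48043685) was called with KCl at 6 h by a small margin (0.28 ± 0.10, adjusted p = 0.0903), and its value was 0.05 with TMM scaling and 0.01 with DESeq2 size factors, neither of which was called, and 0.16 with controls of the same time alone (adjusted p = 0.611). Leaving out any 1 of 7 libraries, both KCl ones, 3 controls and both BDNF ones of 1 h, also lost that call (0.20 to 0.41).

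**Figure D5:**
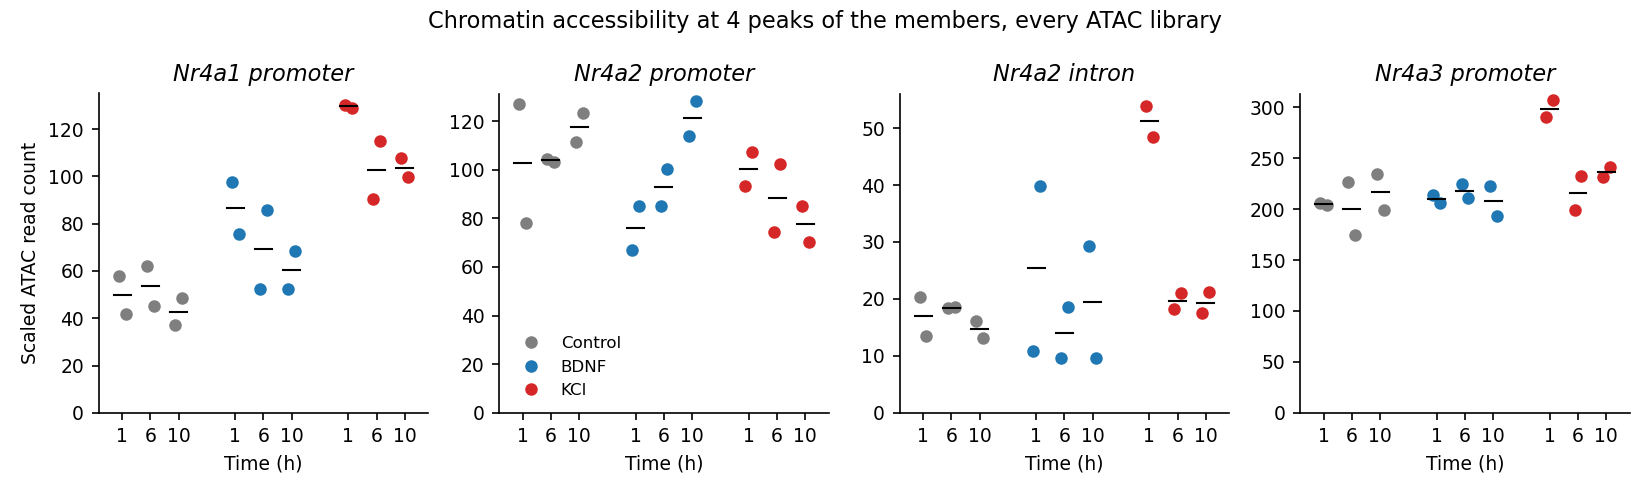
Scaled ATAC read count (LOESS offsets, linear axis from 0) at the promoter peaks of the 3 members and the intronic Nr4a2 peak, with 1 point per library and a black line at the mean of each pair, by time (h), for controls (grey), BDNF (blue) and KCl (red). The KCl pair of 1 h lies above all other libraries at the Nr4a1 promoter, the Nr4a2 intron and the Nr4a3 promoter, and not at the Nr4a2 promoter.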

How the data were processed

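RNA-seq and ATAC-seq were each measured in 18 samples of mouse cortical neurons, 2 per group, grouped by the sample labels. The authors mapped RNA reads to mm10 with TopHat2 and GENCODE M16, and deposited a normalised signal in which each sample's reads per gene had been scaled by a DESeq2 size factor. In each column 100% of values were whole multiples of 1 read within 0.01, so whole reads were recovered, and edgeR on them called 6430 genes with BDNF at 1 h where limma called 6546. The authors aligned ATAC reads with bowtie2, called peaks with MACS2 and deposited read counts over 58177 peaks made with DiffBind. The authors' deposited fold changes and p-values were not used, and their table of genes gave names only, with GENCODE M21 (26203 of 26709 genes named).

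Means under 10 were filtered out. RNA was tested with limma 3.58.1 on log2(value + 1) (trend, robust) and ATAC with edgeR 4.0.16 (quasi-likelihood, LOESS offsets, span 0.3) because its values were raw counts, in models of 7 levels with the 6 controls pooled as in the study, two-sided, with Benjamini-Hochberg adjustment over all 16209 genes or 56383 peaks and calls below 0.1. Controls by time used 9 levels. R 4.3.3, DESeq2 1.42.0 and scipy 1.17.1 were used. Promoter peaks overlapped 1000 bp before to 100 bp after an M21 start. Letters A and B name RNA columns; ATAC columns carry none. No replicate columns were identical, and all differed by more than sampling noise (chi-square per degree of freedom 2.33 to 36.4 for RNA and 2.04 to 2.58 for ATAC). The RNA pair with KCl at 6 h was the most discordant, at 36.4, and the next was the control pair of 1 h, at 9.77. Both tests were tested on simulated data.

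Named genes were the 3 members and, for each, the 5 non-member genes with the closest course. The list genes past 1 log2 unit (at most 6 per list) were named too. Of the peaks, the members' promoters and those called against controls were named. The retinoid X receptors and Nr2f6 were named after their values were seen. The members and lists were chosen with earlier results of these data known. Alternatives covered tests, scaling, pseudocounts, filters, thresholds, controls, the replicate letter as a block and leaving out each library. Mef2b and Nr2e3 were not analysed here. A list of coregulators is not reported here.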

Additional observations from a re-analysis of the deposited data

Results flagged for a closer look

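The fall from 1 to 6 h differed between the stimuli for Nr4a1 and for Nr4a2, by an interaction contrast in the same limma model, and on the log2 scale of the level in opposite directions. For Nr4a1 the log2 change with KCl exceeded that with BDNF by 1.29 (7063 to 1683 normalised read counts with KCl, 680.3 to 66.3 with BDNF, means of 2 libraries). For Nr4a2 it was below that with BDNF, at -0.99 (5289 to 1200 with KCl, 573 to 258 with BDNF). At 6 h with BDNF, Nr4a1 was at 1.17 times its control mean of 56.5 and Nr4a2 at 1.22 times its control mean of 211. Of the rise over controls at 1 h, both kept a smaller share at 6 h with BDNF (1.58% and 13.0%) than with KCl (23.2% and 19.5%), a comparison that was not tested. None of 14 sets of 6 control values (the 3 members in RNA and 11 named peaks in ATAC) had a library far from the other 5.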

How the results depend on the processing

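No value reversed its direction under an alternative where it was called. For the members' RNA contrasts, 445 values under other settings kept their direction and their side of the threshold, 2 gained a call and 3 lost one, and with single libraries left out the counts were 854, 7 and 3. At an adjusted p below 0.01, Nr4a3 with BDNF at 10 h (0.23) and from 6 to 10 h with KCl (-0.40) were not called. With controls of the same time only, Nr4a3 with BDNF at 10 h was 0.26 (adjusted p = 0.103 with limma). Nr4a2 from 6 to 10 h with KCl was called with a filter at a mean of 50 (-0.24) and with edgeR on whole reads (-0.24). Leaving out single libraries gave 0.055 to 0.39 for Nr4a1 and 0.20 to 0.38 for Nr4a2 with BDNF at 6 h, 0.20 to 0.25 for Nr4a3 with BDNF at 10 h, -0.35 to -0.13 for Nr4a2 from 6 to 10 h with KCl, and -0.18 to 0.28 for the difference of Nr4a3 between the stimuli in the change from 1 to 6 h. Over all genes, the step from 6 to 10 h with BDNF called 35 genes with limma, 56 with edgeR and 86 with DESeq2. The causes were not tested.

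Of the other nuclear receptors, 10, 5 and 9 were called at an adjusted p below 0.01 with BDNF at 6 h, BDNF at 10 h and KCl at 10 h, and 9 to 17 were called at the first and the last with single libraries left out. Of the 18 peaks, an adjusted p below 0.01 left 1, 0, 3, 1 and 1 called with BDNF at 1 and 10 h, KCl at 1 and 6 h and between BDNF and KCl at 1 h. Controls of the same time gave 1, 0, 3, 1 and 2 with BDNF at 1 and 10 h and KCl at 1, 6 and 10 h. The DESeq2 test gave 0 with BDNF at 10 h and 1 between the stimuli at 1 h. TMM scaling gave 2 with KCl at 10 h and 1 between the stimuli at 6 h and at 10 h, and DESeq2 size factors gave 4, 1 and 1. With single libraries left out, 1 to 2, 1 to 2 and 0 to 1 were called with BDNF at 1, 6 and 10 h, 3 to 5, 2 to 4 and 1 to 2 with KCl, and 0 to 3 and 0 to 2 between the stimuli at 1 and 6 h. The ATAC depth limits the weak peaks, which had as few as 4 reads in a library.

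The replicate letters of the RNA libraries gave no clear sign of pairing. Over 36 pairs of groups the correlation of same-letter deviations ran from -0.31 to 0.42 (median 0.065), and 13 exceeded 0.1. These correlations cannot settle whether the letters pair libraries. With the letter as a replicate block no member's call changed (Nr4a1 with BDNF at 6 h 0.22, adjusted p = 0.119 with limma). No paired analysis of the ATAC libraries, or of RNA with ATAC, was possible because the ATAC columns carry no replicate number.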
